A study of Solanum lycopersicum with 6 samples.

Results

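The genes described here are those whose transcript level was cleanly halved in tomato (*Solanum lycopersicum*) fruit labelled SlDof1 RNAi. They were chosen by measured values: a gene entered when its mean FPKM (fragments corrected for transcript length and sequencing depth) over 3 wild-type libraries was at least 5 and its highest RNAi value was at most 0.5 of its lowest wild-type value. Of 23709 genes listed in at least 1 library, 12590 had a wild-type mean of at least 5 and 85 met both thresholds. The choice also set aside 11 named identifiers, 7 of which met the thresholds and 4 did not, which left 78 members, 0.620% of the 12590 genes. Because the comparison of the groups chose the members, their levels in the groups are a description and carry no test.

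Both groups were pericarp, the flesh of the fruit, taken at 38 days post anthesis. Wild-type fruit gave 3 libraries and fruit labelled SlDof1 RNAi gave 3. The titles of the RNAi libraries all carry the tag SlDof-8, and the labels say neither what the tag stands for, nor which promoter drives the RNAi construct, nor whether a library is 1 fruit, 1 plant or a pool. The labels tie SlDof1 to no gene identifier, so the silencing itself was not checked, and the group is called RNAi-labelled below. Libraries held 9608643 to 10002358 expected counts. Library 1 of wild type and library 3 of the RNAi-labelled fruit lay apart from the 4 others, and their deviations from their group means correlated across genes with r = 0.695, while the pairs that share a replicate number gave -0.493, 0.279 and -0.521.

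Tomato is a climacteric fruit: a burst of ethylene accompanies ripening, and large sets of genes for softening, pigment and aroma are switched on together. Dof proteins are plant transcription factors with a single zinc finger, and RNAi silences a gene through double-stranded RNA of matching sequence. Plant genomes hold many tandem arrays, in which copies of a gene lie side by side after unequal crossing-over. Such copies can share long stretches of sequence, so that a short read may match more than one of them. The identifiers used in the files (Solyc, chromosome, the letter g, gene number) give the chromosome and the order of genes along it, and 77.5% of consecutive listed numbers were exactly 10 apart. The files pair these identifiers with no gene names or products, and a search of the RefSeq gene table (assembly SLM_r2.1) found 0 of them, so the members are given by identifier and no function is assigned.

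Together the members made up a small share of the reads in wild-type fruit and a smaller one in RNAi-labelled fruit.
They took 0.933%, 0.913% and 0.877% of the expected counts in the wild-type libraries, in order of their numbers, and 0.314%, 0.320% and 0.322% in the RNAi-labelled ones. Within each group the libraries lay close together in this sum. The gap between the groups follows from the choice of the members. The sum was carried by few genes: the 4 most abundant members held 38.1% to 42.3% of the members' FPKM in wild-type libraries and 46.6% to 49.2% in RNAi-labelled ones. In bulk tissue, fewer cells of a type and less RNA per cell cannot be told apart.

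The size of the fall ranged widely. The RNAi-labelled mean was 0.292% of the wild-type mean in the most reduced member and 47.5% in the least reduced, with a median of 30.6% and quartiles of 22.8% and 36.8%. It was under 10% in 4 members, under 20% in 11, under 30% in 37 and under 40% in 66. Across the 78 members, the percentage left had a Spearman rho of 0.268 with the wild-type mean and 0.286 with transcript length. Members are not independent replicates. The wild-type mean is also the denominator of the percentage, and the choice bounded both, so these values do not show how depth relates to level. On edgeR's log2 scale the median fitted change was -1.76 (range -8.06 to -1.13) against -0.01 over all 16737 genes tested. All 78 members passed the count filter and were called lower by edgeR's quasi-likelihood test (largest adjusted p = 0.0147), where 5.80% of all tested genes were called lower. That count only restates the choice.

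**Figure D1:**
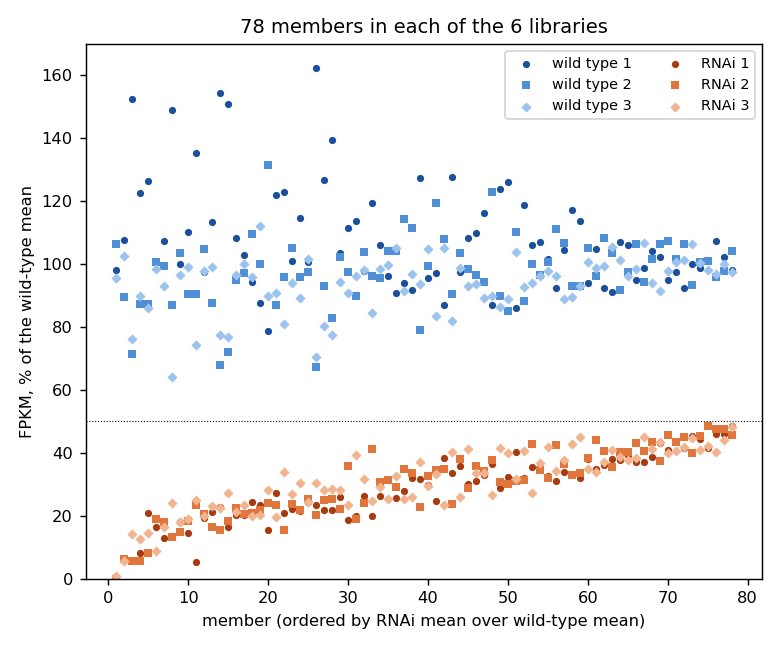
FPKM of the 78 members in each library as a percentage of the member's wild-type mean, ordered from the most to the least reduced; each point is 1 library, and the dotted line marks 50%. The 3 RNAi-labelled libraries lie under 50% for every member, as the choice requires. The wild-type points furthest above 100% are mostly from library 1.

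In wild-type fruit the members spanned moderate to high levels. Their wild-type mean FPKM ran from 5.34 to 888 with a median of 33.2, where the 12590 genes with a mean of at least 5 had a median of 22.1. A mean of at least 100 FPKM was reached by 15 of 78 members (19.2%) and by 11.6% of those 12590 genes, and a mean of at least 500 by 3 members (3.85%) and by 1.24%. The mirror set, 126 genes with an RNAi-labelled mean of at least 5 and a highest wild-type value at most 0.5 of the lowest RNAi-labelled value, had a median of 18.1 FPKM in the group where it was high and reached 149 at most. These differences between sets were not tested.

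**Figure D2:**
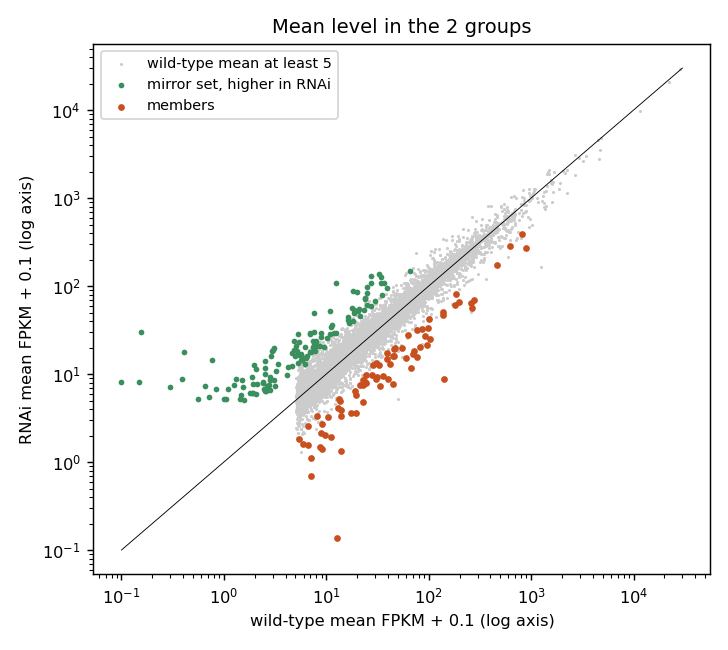
Mean FPKM + 0.1 in wild-type (horizontal) and RNAi-labelled fruit (vertical), both on log axes, for genes with a wild-type mean of at least 5 (grey), the mirror set (green) and the 78 members (orange); the line marks equal levels. Members extend to 888 FPKM in wild type, and the mirror set to 149 FPKM in RNAi-labelled fruit.

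The most abundant member was Solyc03g116230.2, of chromosome 3, with 850, 883 and 930 FPKM in the wild-type libraries and 265, 291 and 261 in the RNAi-labelled libraries, in the order of their numbers as in all values that follow. Its level fell from 888 ± 39.99 to 272 ± 16.5 FPKM (SD, n = 3), 3.26-fold lower. Solyc10g076510.1 lay at 805, 853 and 800 FPKM in wild type and 397, 374 and 396 in RNAi-labelled fruit. It kept 47.5% of its wild-type mean, the largest part of any member. Solyc02g085910.2 lay at 628, 602 and 615 against 284, 292 and 271 FPKM, and Solyc02g077240.2 at 438, 489 and 468 against 177, 179 and 162 FPKM. In all 4 genes the fold lay between 2.11 and 3.26. That no RNAi-labelled value came near a wild-type one is required by the choice.

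The next 4 in abundance fell further or varied more. Solyc05g005170.2, of chromosome 5, had 280, 271 and 282 FPKM in wild type and 67.8, 70.8 and 67.7 in RNAi-labelled fruit, a 4.04-fold lower mean with an SD of 5.96 and 1.74. Solyc07g009530.1, whose listed transcript is only 192 bases long, had 285, 249 and 254 against 53.1, 59.1 and 55.5 FPKM, 4.71-fold lower. Its FPKM rests on fewer fragments than its level implies, with expected counts of 424, 339 and 346 in wild type and 69, 82 and 82 in RNAi-labelled fruit. Solyc08g066250.2 was uneven in wild type, at 328, 241 and 208 FPKM, with library 1 the highest, and lay at 56.7, 64.5 and 73.3 FPKM in RNAi-labelled fruit. Solyc02g086970.2 was also uneven, at 172, 242 and 177 against 72.0, 74.4 and 52.7 FPKM, here with wild-type library 2 the highest.

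The deepest fall was that of Solyc10g005120.1, of chromosome 10, which was close to absent in RNAi-labelled fruit. It had 12.3, 13.3 and 12 FPKM in wild type and 0, 0 and 0.11 in RNAi-labelled fruit. In reads this was 354 expected counts over the wild-type group and 1 over the RNAi-labelled group. Scaled to the library totals, the level was 0.282% of wild type, with an exact binomial 95% interval of 0.00713% to 1.58%. The interval covers counting error only and takes no account of the gene being picked as the most reduced member. No other member came near so deep a fall: the next, Solyc04g055170.2, kept 6.03%. It was also far more abundant, with 153, 128 and 146 FPKM in wild type and 8.81, 9.10 and 7.84 in RNAi-labelled fruit, 16.6-fold lower, and its counts of 1538 to 1836 and 94 to 111 leave little room for counting error.

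Below these, the strongest falls were in genes of low level, some of them resting on few reads. Solyc03g031630.2 had 10.5, 4.94 and 5.27 FPKM in wild type and 0.40, 0.39 and 0.98 in RNAi-labelled fruit, from 25 to 54 reads a library in the first group and 2 to 5 in the second. Solyc06g084070.2 had 17.1, 12.2 and 12.5 against 1.15, 0.80 and 1.77 FPKM. In both genes wild-type library 1 was the highest of its group and RNAi-labelled library 3 the highest of the other. Solyc10g018140.1 kept 14.6% of a wild-type mean of 6.96 FPKM, Solyc06g050970.1 kept 14.8% of 8.93, Solyc09g065660.2 kept 15.9% of 8.67 and Solyc03g083920.1 kept 16.9% of 10.9. Among these, Solyc06g050970.1 was the steadiest in wild type at 9.01, 9 and 8.78 FPKM, from 286.51 to 290.93 expected counts. Solyc03g083920.1 was the least steady, at 16.3, 9.53 and 7 FPKM, again with library 1 the highest.

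The members nearest the thresholds differ little from genes just outside them. Just inside the ratio threshold, the highest RNAi-labelled value was 0.497 of the lowest wild-type value in Solyc09g082720.2 and in Solyc09g098120.2, 0.496 in Solyc10g076510.1 and 0.492 in Solyc12g096310.1. Just outside, it was 0.501 in Solyc07g065970.1, 0.505 in Solyc02g032780.1, 0.507 in Solyc06g062600.2 and 0.508 in Solyc08g007850.1. The first of these was no minor gene: Solyc07g065970.1 lay at 148, 178 and 178 FPKM in wild type and 60.8, 73.9 and 54.9 in RNAi-labelled fruit. On the level threshold, the member with the lowest wild-type mean, Solyc03g080180.2, lay at 5.34 FPKM, and the highest of the genes that met the ratio but not the level, Solyc06g005820.2, at 4.81 FPKM.

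Since all 6 libraries entered the choice, a smaller choice was also read in libraries it had not used. The same thresholds applied to wild-type libraries 2 and 3 and RNAi-labelled libraries 1 and 2 took 119 genes, all 78 members among them, as the thresholds on the ratio require. In wild-type library 1 and RNAi-labelled library 3, the pair that stands apart, RNAi-labelled library 3 lay at or under 0.5 of wild-type library 1 for 107 of the 119 genes (89.9%), as it did for 1.76% of the 12588 genes with a wild-type mean of at least 5 and a value above 0 in wild-type library 1. The median left was 35.9% in the 4 libraries that chose the genes and 36.0% in the other 2. With 1 library a group this has no test. The strongest exception was Solyc09g074700.1, at 141%, and Solyc02g072120.2 followed at 91.6%; of the 12 exceptions 1 had a listed transcript under 600 bases.

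**Figure D3:**
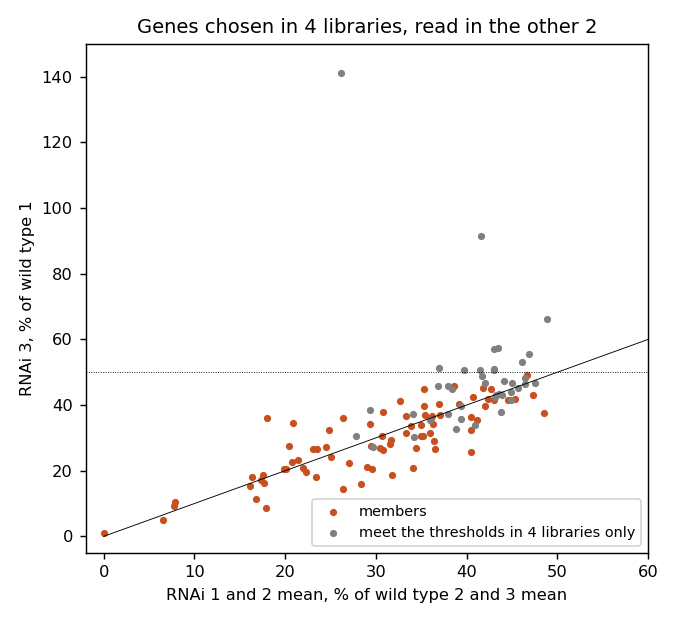
Each of 119 genes chosen in 4 libraries: the RNAi-labelled level as a percentage of wild type in those 4 libraries (horizontal) and in wild-type library 1 and RNAi-labelled library 3, which did not choose them (vertical); the solid line marks equality and the dotted line 50%. Of the points, 107 lie at or under 50% and 1 lies at 141%.

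Listed transcripts of the members were short to middling. The length ran from 189 to 3600 bases with a median of 1189.5 and quartiles of 722 and 1587, where the 12590 genes with a wild-type mean of at least 5 had a median of 1384.5 and quartiles of 919 and 1993. The mirror set had the same median as the members, 1189.5 bases, so a shorter median than that of all expressed genes was seen in both sets. The ends differed more: 16 of 78 members (20.5%) and 16 of 126 genes of the mirror set (12.7%) were under 600 bases, against 10.7% of the expressed genes. Under 300 bases there were 6 members (7.69%), 2 genes of the mirror set (1.59%) and 2.16% of the expressed genes. None of these differences was tested.

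Part of this spread in length follows the gene models. Identifiers with the suffix 1 (as in Solyc07g009530.1) have lengths that are multiples of 3 in 26 of 26 members and in 99.9% of the 3462 expressed genes of that kind, as in models made of coding sequence alone; for those with the suffix 2 the share was 42.3% of 52 members and 32.8% of 9128 expressed genes. Suffix 1 models made up 33.3% of members, 39.7% of the mirror set and 27.5% of expressed genes. Within suffix 1 the median coding length was 688.5 bases in members, 924 in the mirror set and 975 in expressed genes. Within suffix 2 the median length was 1420.5, 1314.5 and 1527.5 bases. The shortest members were Solyc07g054810.1 with 189 bases and Solyc07g009530.1 with 192, and the longest were Solyc07g062600.2 with 3600 bases and Solyc06g050970.1 with 3327. Solyc07g062600.2 had 79.2, 82.2 and 70.6 FPKM in wild type and 33.4, 28.8 and 33.7 in RNAi-labelled fruit.

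Within the wild-type group, the short members leaned to library 1. The choice bears on this order, since a gene low in library 1 meets the ratio threshold less easily: library 1 was the lowest for 28.2% of members and 41.4% of expressed genes. Of the 16 members under 600 bases, 14 had their highest wild-type value in library 1, as did 14 of 24 members from 600 up to 1200 bases and 16 of 38 longer ones; among all expressed genes under 600 bases it was 669 of 1351, and in the mirror set 5 of 16. Of 27 genes under 600 bases among the 119 of the smaller choice, which did not use library 1, 20 were highest in wild-type library 1. The median ratio of library 1 to the mean of libraries 2 and 3 was 1.25 for the 16 short members, 1.06 for the middle class and 1.01 for the longest, and 1.07, 1.02 and 0.990 in the same classes of expressed genes. Library 1 reached at least 1.5 times the mean of the other 2 wild-type libraries in 7 members, all at most 660 bases long, and in 3.53% of expressed genes. The widest gap was in Solyc10g050990.1, 210 bases long, with 132, 54.8 and 57.3 FPKM in wild type. RNAi-labelled library 3, which stands apart in the same way, was the highest of its group for 6 of these 7. It was the highest for 44.9% of all members and 41.7% of expressed genes.

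Across the 78 members the deviation of wild-type library 1 had a Spearman rho of -0.417 with length, and that of RNAi-labelled library 3 had -0.215; over the 12590 expressed genes the values were -0.0875 and 0.0578. The deviations of the 2 libraries went together, with a rho of 0.534 over members and 0.773 over expressed genes. These are correlations across genes of the same libraries and describe those libraries only. The part of library 1 in the wild-type means of the short members was not tested beyond leaving it out: without it and RNAi-labelled library 3 all 78 members still met the thresholds, of which the one on the ratio could not fail.

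**Figure D4:**
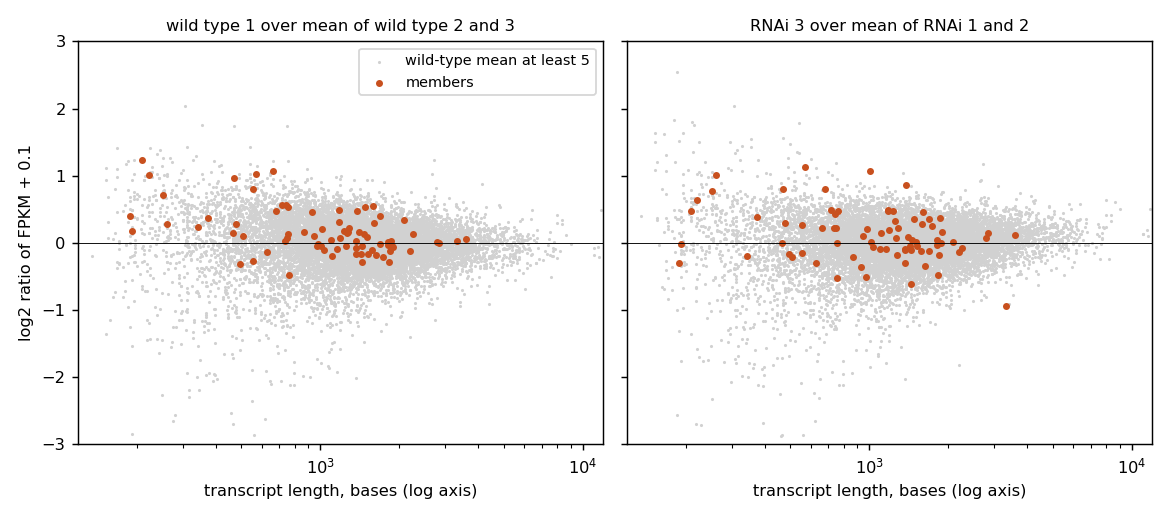
Log2 ratio of FPKM + 0.1 in wild-type library 1 over the mean of wild-type libraries 2 and 3 (left) and in RNAi-labelled library 3 over the mean of RNAi-labelled libraries 1 and 2 (right), against listed transcript length on a log axis, for genes with a wild-type mean of at least 5 (grey) and the 78 members (orange); genes beyond the axes are not shown. Short members lie mostly above 0 on the left, with 14 of the 16 under 600 bases highest in wild-type library 1.

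The members were spread over all 12 chromosomes, with 1 further member, Solyc00g050430.2, on sequence without a chromosome. Chromosome 2 held 11, chromosomes 7 and 10 held 9 each and chromosome 11 held 1. Against the number of expressed genes, members made up 1.11% on chromosome 10, 0.957% on chromosome 7 and 0.835% on chromosome 2, and 0.121% on chromosome 11 and 0.295% on chromosome 1. With so few members per chromosome these shares rest on single genes, and no test was made.

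Near neighbours were counted as genes of the same chromosome whose gene numbers differ by at most 50. By that count 7 of 78 members (8.97%) had another member as a near neighbour, in 3 groups on chromosomes 5, 7 and 9. The mirror set, which is larger and therefore meets itself more easily, had 17 of 126 (13.5%). Within 10 gene numbers there were 2 members, Solyc07g054800.1 and Solyc07g054810.1, and 11 genes of the mirror set (8.73%). Among expressed genes 97.3% had another such gene within 50 numbers, a share that follows from their density.

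On chromosome 5 the pair Solyc05g005150.1 and Solyc05g005170.2 differed in level and in depth of the fall. The first had 77.4, 87.9 and 89.6 FPKM in wild type and 32.5, 30.2 and 34.8 in RNAi-labelled fruit, 2.62-fold lower, beside the 4.04-fold of the second. Their expected counts were whole numbers, so no division of reads showed in them. On chromosome 7 a group of 3 very short models were low together. Solyc07g054750.1, of 261 bases, had 40.5, 32.1 and 34.3 against 7.11, 6.77 and 14.01 FPKM. Solyc07g054800.1, of 252 bases, had 26.2, 17.5 and 14.4 against 1.06, 4.55 and 4.87 FPKM, and Solyc07g054810.1 had 23.3, 18.8 and 16.5 against 3.93, 8.09 and 4.84 FPKM. Each rested on 22 to 87 reads per wild-type library, and each was highest in wild-type library 1, as most short members were. All 3 also had whole counts.

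The pair on chromosome 9, Solyc09g015000.2 and Solyc09g015020.1, shared reads. The first had 22.0, 23.3 and 22.3 FPKM in wild type and 8.05, 8.59 and 5.83 in RNAi-labelled fruit, and the second had 35.0, 30.01 and 33.1 against 12.3, 13.2 and 12.7. In the 4 libraries where their expected counts had fractions, the sum of both counts was whole (within 0.015). The sums were 343, 333 and 340 in wild type and 122, 133 and 105 in RNAi-labelled fruit, a gap that follows from the choice of both genes. The gene number between them, Solyc09g015010.2, was lower too, at 2.57, 4.17 and 4.92 against 1.86, 2.07 and 1.25 FPKM (edgeR adjusted p = 0.0222).

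Fractional counts were found for 9 of 78 members (11.5%) and for 5.91% of expressed genes. In 4 cases besides the pair on chromosome 9, the partner was a neighbour that is not a member, and for Solyc06g035480.2, Solyc06g050970.1 and Solyc06g051700.1 no neighbour made the sums whole. The counts of Solyc01g099180.2 and Solyc01g099190.2 summed to whole numbers in all 6 libraries. The latter is *LOXB*, a lipoxygenase gene among the identifiers set aside, and its 978, 917 and 942 FPKM in wild type and 452, 452 and 495 in RNAi-labelled fruit dwarf the 28.8, 26.8 and 30.5 against 13.0, 11.5 and 12.9 of the member. Likewise Solyc07g064180.2, at 27.8, 22.6 and 21.4 against 7.86, 8.16 and 8.04 FPKM, shared reads with Solyc07g064170.2, at 786, 651 and 715 against 314, 320 and 379. In these cases the member holds a small part of the pair's reads, and how much of its level is its own was not tested.

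Solyc06g051510.2 shared reads with Solyc06g051500.2, and their summed counts were 331, 307 and 296 in wild type and 120, 123 and 117 in RNAi-labelled fruit. Solyc08g066250.2 shared reads with the genes on both sides, Solyc08g066240.2 and Solyc08g066260.2. The sums of the 3 counts were 18857, 14174 and 13410 in wild type and 5318, 5808 and 6892 in RNAi-labelled fruit. On chromosome 6 the member held most of the summed reads (296.59 of 331 in wild-type library 1), so the gap between the groups there follows from its choice. On chromosome 8 most of the reads were those of Solyc08g066240.2, which is not a member.

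**Figure D5:**
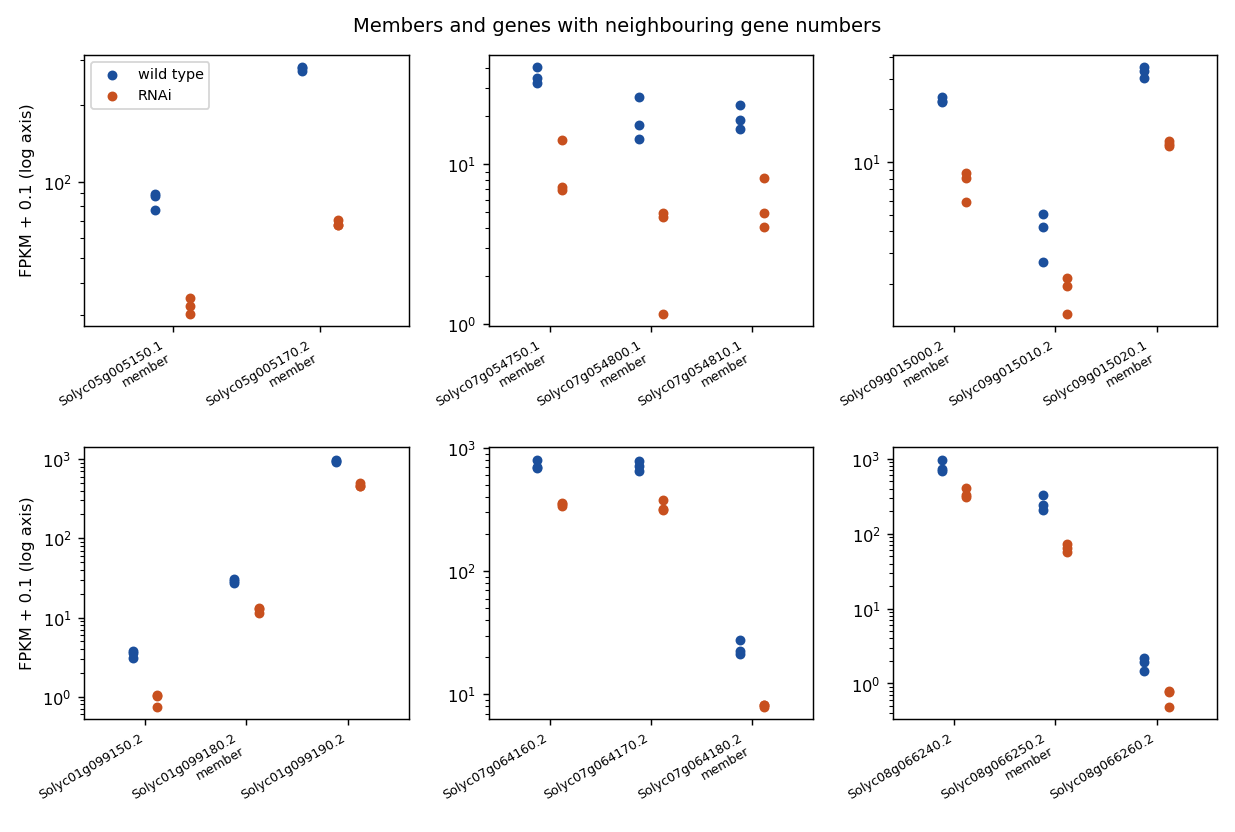
FPKM + 0.1 on a log axis in the 3 wild-type (blue) and 3 RNAi-labelled libraries (orange) for 6 groups of genes with neighbouring gene numbers; "member" marks the members. In the top row members lie beside members; in the bottom row 1 member lies beside genes that are not members, such as Solyc01g099190.2 at 917 to 978 FPKM in wild type.

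Genes beside the members that are not members were tested in the same fit, and as a body they lay near the level of all genes. Of 529 such neighbours listed within 50 gene numbers, 389 could be tested. Their median log2 fold change was -0.01, as over all tested genes, and 51.4% lay below 0 against 51.5% of all tested genes. The test called 30 lower (7.71%) and 32 higher (8.23%), against 5.36% and 6.57% of all tested genes that are not members.

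Large falls were rare among these neighbours, though a higher share than among other genes. The test called 15 of the 389 (3.86%) lower with an RNAi-labelled mean at most 0.5 of the wild-type mean, against 1.01% of tested genes that are not members. These 15 lay beside 13 members. Together with members beside members this makes 18 of 78 members with a near neighbour that was also at least halved. That count joins neighbours taken by group means and the test to members taken by their highest and lowest values. It includes pairs that share reads and was not made for other genes, so it does not show whether members lie together. Of the 15, 11 were 10 gene numbers away, and 6 had a wild-type mean under 5 and so could not be members. Of these neighbours, 7 of the 15 had fractional counts, which need not mean reads shared with the member. Solyc10g007100.2 had them, while the member beside it, Solyc10g007110.2, had whole counts. Leaving out neighbours with fractional counts, but not members with them, gave 8 of 358 (2.23%). Among genes with whole counts that are not members it was 0.932%. No test of this difference was made. The 8 neighbours lay beside 9 members, among them Solyc07g064180.2, Solyc09g015000.2 and Solyc09g015020.1, which had fractional counts.

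Among these neighbours with whole counts, Solyc07g064160.2 was the most abundant, at 688, 696 and 801 FPKM in wild type and 357, 351 and 340 in RNAi-labelled fruit (fitted log2 fold change -1.11, edgeR adjusted p = 0.000275). It is the gene next to the pair of Solyc07g064170.2 and the member Solyc07g064180.2, so 3 consecutive listed numbers were lower there. Other neighbours went the opposite way. Beside Solyc07g009530.1, Solyc07g009500.1 had 50.02, 49.1 and 44.9 FPKM in wild type and 97.6, 102 and 112 in RNAi-labelled fruit (higher, edgeR adjusted p = 0.00169), and beside Solyc10g050990.1, Solyc10g051020.1 had 339, 217 and 231 against 529, 535 and 770 FPKM (higher, edgeR adjusted p = 0.00763). Both were named after their values were seen.

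For comparison, lists of 43 ripening genes, assembled from general knowledge of tomato ripening, hold 0 members, because the 6 of them that met the thresholds are among the identifiers set aside: *ACS4*, *ACO5*, *PG2a*, *MAN4a*, *LOXC* and Solyc06g074240.1. Of 41 tested genes of these lists 28 fell, 3 rose and 10 did not pass (edgeR, adjusted over all genes), with a median log2 fold change of -0.61 against -1.76 for the members and -0.01 for all genes. The lists were chosen with results of these data known. The names of 37 lie on the same chromosome in RefSeq, 1 lies elsewhere and 5 have no entry of that name.

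As for the tissue, 4 genes of ripe pericarp summed to 17628 to 21006 FPKM in wild type and 13378 to 15411 in RNAi-labelled fruit. *ACO1*, an ethylene synthesis gene, carried most of that sum, at 11472 against 9873 FPKM on average, and did not pass (edgeR adjusted p = 0.206). The other 3 fell: the polygalacturonase gene *PG2a*, at 1244 against 165 FPKM, the phytoene synthase gene *PSY1*, at 1369 against 759.9 FPKM, and *E8*. The last lay at 4672 against 3483 FPKM, and RefSeq places its name on another chromosome than the identifier used here. Of 5 genes listed as seed storage proteins 2 were at 0 in every library, and the 5 summed to 1.25 to 2.12 FPKM. Of 4 cuticle genes, 2 could be tested: *CD2* rose (edgeR adjusted p = 0.0131) and *CER6* did not pass. Their list summed to 58.2 to 65.9 FPKM in wild type and 85.5 to 106 in RNAi-labelled fruit, with *SHN3* at 0 throughout. The part of tissue composition in the members' levels was not tested.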

How the data were processed

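The authors deposited 1 table per library with an expected count per gene, an FPKM value and a transcript length, per the file headers. RNA was extracted with SDS and phenol and sequenced on standard Illumina libraries, per the labels' protocols. Neither an aligner nor a counter, strand setting or build is named (not given in the sources used here), so overlapping and antisense genes were not separated. Whole numbers (within 0.005) made up 94.5% to 94.9% of expected counts. Genes absent from a library's table were taken as 0.

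Members were chosen on FPKM as deposited. Expected counts were rounded, filtered with edgeR's filterByExpr (16737 genes left), scaled by TMM factors (0.967 to 1.04) and compared with the quasi-likelihood test, with group as the only term and Benjamini-Hochberg adjustment (threshold 0.05). As alternatives, DESeq2, limma on log2(FPKM + 1) and log2(FPKM + 0.1), no filter, the replicate number as a block and fits without 1 or 2 libraries were run. The main test did not pair libraries by number. Deviations of same-numbered libraries correlated with r = -0.493, 0.279 and -0.521. With 3 libraries a group, these values cannot show whether the numbers pair them. The labels do not say that replicates are separate plants. The p-values set the group difference against the spread between these samples, and may not extend to other plants. The test was also run on simulated counts. No outcome of that run is given here, so it does not show whether the p-values hold for these libraries. Whether the p-values allow for the shared deviation of the pair that stands apart was not tested. Deviations within a group used log2(FPKM + 0.1).

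Members named are the 8 most abundant, the 8 most reduced, all with a member within 50 gene numbers, the 4 nearest the ratio threshold on each side, and the 2 longest and shortest; others were named after their values were seen, among them those that share reads, the neighbours, Solyc10g050990.1, Solyc00g050430.2 and the exceptions in the left-out libraries. The members and lists were chosen with earlier results of these data known. Python 3.11.15 with SciPy 1.17.1 and matplotlib 3.10.9 was used for tables and figures, and R 4.3.3 with DESeq2 1.42.0, edgeR 4.0.16 and limma 3.58.1 for the fits.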

Additional observations from a re-analysis of the deposited data

How the results depend on the processing

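Scaling changed the membership little: 86 genes met the thresholds with TMM-scaled CPM, all 78 members among them, and 78 with FPKM rescaled to TPM, 76 of them members. Group means in place of extremes gave 171 genes, a stricter bound on the ratio, 1/3, gave 22, and leaving out wild-type library 1 and RNAi-labelled library 3 gave 119. Without 1 library the number was 87 to 103; fewer libraries can only loosen the ratio threshold.
Of the members, 76 to 78 were called lower without 1 library and 78 in every other fit. These counts only restate the choice, which used the same libraries. Solyc10g050990.1 did not pass without RNAi-labelled library 1 or 2, nor Solyc02g078110.1 without library 2 (edgeR adjusted p up to 0.0673 and 0.0515). Over all genes, 971 were called lower, 381 with the replicate block, 1771 without the pair that stands apart and 481 to 912 without 1 library. limma on log2(FPKM + 1) put 36.3% of its calls lower, against 47.0% in edgeR. Within 10 gene numbers 2 members had a member as neighbour. Neighbours at least halved numbered 9 to 15 without 1 library, the fewest without RNAi-labelled library 1. They numbered 8 when neighbours with fractional counts were left out and 11 to 20 in all other alternatives. All these alternatives were chosen after seeing the data. Of the 16 short members 14 were highest in wild-type library 1 also as TMM-scaled CPM. The causes were not tested. Low counts limit the shortest and rarest members, which had as few as 15 reads in a wild-type library.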
